A study of Mus musculus with 16 samples.

Results

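A set of 10 genes of TGF-beta and activin signalling were followed in mouse Th17 cells (helper T cells that secrete IL-17) across a PDH knockout and sodium acetate. They were the ligand genes Tgfb1 and Inhba, the receptor genes Tgfbr1 and Tgfbr2, the signal carriers Smad2 and Smad3, the inhibitors Smad7, Ski and Skil, and the target gene Sox4. The genes were chosen by name, and all 10 were found among the 15571 genes of the deposited table and were tested among 14985. They were proposed with the values of these same libraries in view. Their levels and fold changes are therefore given as a description, with standard errors but no p-values.

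The libraries formed 4 groups of 4, which were KO acetate, KO untreated, WT acetate and WT untreated. KO cells came from mice with loxP-flanked PDH alleles and CD4-Cre, which is active in T cells, and WT cells came from mice with the same flanked alleles and no Cre. PDH, the pyruvate dehydrogenase complex, makes acetyl-CoA from pyruvate in mitochondria, and the sample titles spell it PHD. Naive CD4 T cells from spleen and lymph nodes were sorted with magnetic beads and cultured for 3 days on anti-CD3 (5 µg/mL) with anti-CD28 (1 µg/mL), IL-6 (30 ng/mL) and an antibody to IFNγ (5 µg/mL). All 4 groups also received TGFβ at 2 ng/mL, so no group shows these genes without added ligand. The acetate groups received 10 mM sodium acetate throughout. No group controlled for sodium or for Cre alone. Whether the libraries of a group are separate mice or cultures is not stated, and the errors measure the spread between libraries, which may be technical.

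TGFβ dimers bind the type II receptor TGFBR2, which then recruits and phosphorylates the type I receptor TGFBR1. Activins, dimers of the inhibin beta chains, use related activin receptors. Both receptor pairs phosphorylate SMAD2 and SMAD3, which enter the nucleus with SMAD4 and regulate genes. SMAD7 blocks the receptors, and SKI and SKIL (also called SnoN) are corepressors that bind the SMADs in the nucleus. In CD4 T cells TGFβ with IL-6 drives the Th17 fate, and without IL-6 it drives regulatory T cells.

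Promoter sequence is shown for Sox4, Inhba and Tgfbr2, the 3 members whose group means spanned the widest range. The sequences are those of RefSeq on GRCm38.p6 and lie upstream of the RefSeq start, 5′ to 3′ on the strand of the gene. Capitals mark the SMAD box, CAGAC or its reverse complement GTCTG. The stretches are chr13:28953714-28953949 on the minus strand for Sox4 (stopped at the first annotated exon base), chr13:16011601-16011850 on the plus strand for Inhba and chr9:116175364-116175613 on the minus strand for Tgfbr2.
Sox4: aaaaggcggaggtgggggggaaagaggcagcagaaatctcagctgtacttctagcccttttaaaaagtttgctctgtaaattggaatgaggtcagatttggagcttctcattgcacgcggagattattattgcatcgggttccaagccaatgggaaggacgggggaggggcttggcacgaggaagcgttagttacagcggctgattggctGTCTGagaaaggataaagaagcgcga
Inhba: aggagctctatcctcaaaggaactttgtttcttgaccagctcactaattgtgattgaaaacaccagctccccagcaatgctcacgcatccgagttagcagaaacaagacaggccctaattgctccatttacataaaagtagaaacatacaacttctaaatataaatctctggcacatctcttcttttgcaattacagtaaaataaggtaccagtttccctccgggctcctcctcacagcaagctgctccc
Tgfbr2: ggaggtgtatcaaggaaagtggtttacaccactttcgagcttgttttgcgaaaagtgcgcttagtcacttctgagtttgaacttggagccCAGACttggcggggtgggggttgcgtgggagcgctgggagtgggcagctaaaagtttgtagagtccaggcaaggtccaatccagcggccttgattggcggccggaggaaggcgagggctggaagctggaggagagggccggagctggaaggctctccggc
Sox4 and Tgfbr2 each had 1 SMAD box in the 250 bases upstream of the start, and Inhba had none. Among 32851 mouse promoter windows of this length 42.2% held at least 1, so its presence or absence describes these letters only. Across the 7 members whose RefSeq windows were examined, 3 of 8 windows held a SMAD box and 3 held the GC-rich element GGCGC (or GCGCC), which was in 32.0% of all windows. None of the 8 held the AP-1 motif TGANTCA, found in 6.75% of all windows. Smad2, Smad7 and Skil are named only.

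Library totals lay between 24571177 and 33723470 estimated counts, and every member had at least 222 counts in every library. Levels are given as CPM (counts divided by the TMM-scaled library size and put on a common scale), and differences as the edgeR log2 fold change with its standard error (SE). A gene was called at a Benjamini-Hochberg adjusted p under 0.05 over all tested genes. For the members a call, kept or lost in a refit, is description and not a test, since they were proposed with these values in view. Pdha1, which encodes the E1 alpha subunit of PDH, stood at 225 ± 11.5 CPM in KO untreated and 247 ± 12.6 CPM in WT untreated libraries (SD, n = 4 each). The labels do not name the deleted gene or exons, and a whole-gene count does not check the genotype. A single unnamed gene took more than 3% of counts in 4 libraries (KO acetate 2, KO untreated 1 and 2, WT untreated 1), and the text says where leaving these out ends a call. The 5 CD4 T cell markers summed to 1140 to 1250 CPM in KO acetate, 1200 to 1350 CPM in KO untreated, 1250 to 1330 CPM in the WT acetate group and 1400 to 1540 CPM in the WT untreated group, which lay above the other 3. All 5 Th17 markers were present in every group, with sums of 1490 to 2680 CPM in KO acetate, 577 to 848 CPM in KO untreated libraries, 1170 to 1980 CPM in WT acetate libraries and 634 to 1030 CPM in WT untreated libraries.

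**Figure D1:**
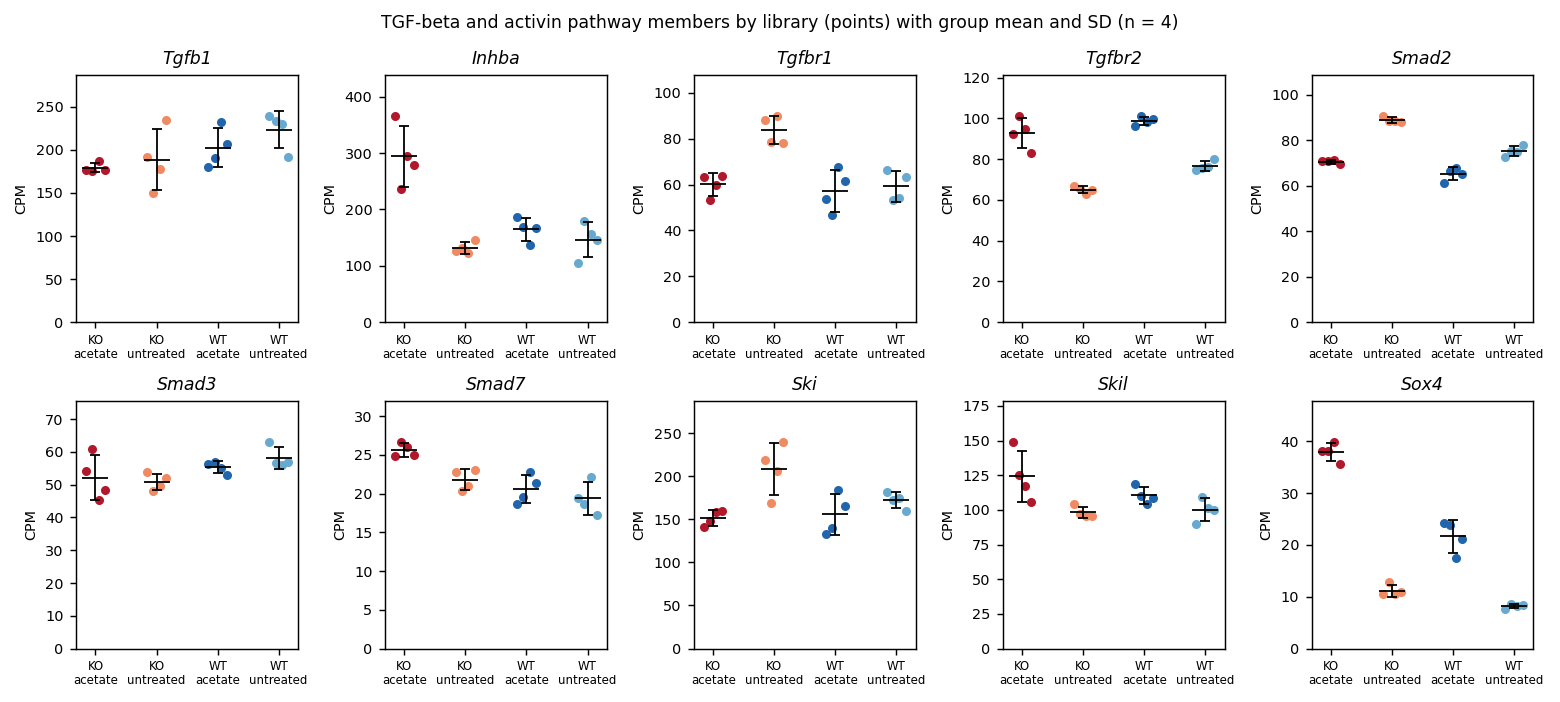
CPM of the 10 members in each of the 16 libraries (points), with the group mean and SD as bars, n = 4 per group and each axis starting at 0. Sox4 is highest in KO acetate (35.7 to 39.9 CPM) and next highest in WT acetate libraries, and the 4 KO acetate libraries of Inhba lie above the other 12.

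The 2 ligand genes had different profiles. Inhba, which encodes the beta A chain of activin A, was highest in KO acetate libraries, at 366, 237, 295 and 279 CPM. It stood at 126, 132, 123 and 147 CPM in KO untreated libraries, at 187, 169, 136 and 167 CPM in WT acetate libraries and at 105, 179.6, 156 and 145 CPM in WT untreated libraries. All 4 KO acetate libraries lay above the other 12, whose ranges overlapped one another. The level was 2.23-fold higher in KO acetate than in KO untreated cells (log2 fold change 1.15, SE 0.154). It was also 1.79-fold higher in KO acetate than in WT acetate cells (log2 fold change 0.84, SE 0.153). That call was lost without KO acetate 1 or 3 or WT acetate 2, 3 or 4, with log2 fold changes of 0.71, 0.83, 0.85, 0.75 and 0.84, and with scaling by library totals (0.84). In WT cells the difference with acetate was 0.17 (log2, SE 0.152), and between KO and WT untreated cells it was −0.15 (SE 0.152). The 2 acetate effects, KO minus WT, differed by 0.99 (log2, SE 0.216).

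Tgfb1, the gene of the ligand TGFβ1, had 177, 176, 187 and 177 CPM in KO acetate libraries. It had 192, 149.9, 178 and 235 CPM in KO untreated libraries, 180.1, 190.4, 233 and 207 CPM in WT acetate libraries and 239, 233, 229.7 and 191 CPM in WT untreated libraries. The groups overlapped in each of the 4 comparisons between them. The KO untreated to WT untreated difference was −0.24 (log2, SE 0.109). It was not called, but was called without KO untreated 4 (−0.36) or WT untreated 4 (−0.31) and with scaling by library totals (−0.30), and was −0.08 without the 4 libraries with a high share of the unnamed gene. Its acetate effect was −0.08 in KO cells and −0.14 in WT cells (log2, SE 0.109 in each).

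The receptor genes changed in opposite directions. Tgfbr2, the type II receptor that binds TGFβ first, was at 92.3, 101, 94.9 and 83.3 CPM in KO acetate libraries and at 66.8, 65.3, 62.7 and 65.1 CPM in KO untreated libraries. In WT cells it was at 96.2, 101, 98.1 and 99.6 CPM with acetate and 74.8, 75.6, 76.2 and 80.2 CPM without. WT acetate and KO acetate libraries overlapped at the top, WT untreated libraries came next and KO untreated libraries were lowest, with no overlap between these 3 steps. Acetate went with a 1.43-fold higher level in KO cells (log2 fold change 0.52, SE 0.056) and a 1.29-fold higher level in WT cells (0.36, SE 0.056). Between untreated genotypes Tgfbr2 was 1.18-fold lower in KO cells (−0.24, SE 0.056). The difference between KO acetate and WT acetate cells was −0.09 (SE 0.056).

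Tgfbr1, the type I receptor kinase that phosphorylates SMAD2 and SMAD3, was highest in KO untreated libraries. It stood there at 88.2, 78.5, 89.9 and 78.2 CPM, against 66.5, 53.1, 54.0 and 63.2 CPM in WT untreated libraries. With acetate it was at 63.5, 53.1, 59.99 and 63.9 CPM in KO and 53.6, 46.6, 67.6 and 61.6 CPM in WT libraries. The 4 KO untreated libraries lay above the other 12, and the other 3 groups overlapped. Tgfbr1 was 1.41-fold higher in KO than in WT untreated cells (log2 fold change 0.50, SE 0.103) and 1.39-fold lower in KO acetate than in KO untreated cells (−0.48, SE 0.103). The acetate difference in WT cells was −0.05 (SE 0.103). The difference of the 2 acetate effects, KO minus WT, was −0.43 (SE 0.146) and was not called. It was called without WT acetate 2 (−0.52) or WT untreated 1 (−0.50), with DESeq2 (−0.43) and with the replicate number fitted as a block (−0.43).

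Among the signal carriers, Smad2 separated all 4 groups. It was at 70.9, 70.8, 71.4 and 69.4 CPM in KO acetate and 90.7, 88.4, 88.5 and 88.0 CPM in KO untreated libraries. WT libraries had 61.2, 66.3, 68.0 and 65.3 CPM with acetate and 72.6, 75.2, 74.8 and 77.9 CPM without. The order from high to low was KO untreated, WT untreated, KO acetate and WT acetate, and no library crossed into a neighbouring group. Smad2 was 1.26-fold lower with acetate in KO cells (log2 fold change −0.33, SE 0.048) and 1.15-fold lower in WT cells (−0.20, SE 0.048). The WT difference was −0.16 and lost its call when libraries were scaled by their totals. KO untreated cells had 1.18-fold more than WT untreated cells (0.24, SE 0.048). The difference between KO acetate and WT acetate cells was 0.12 (SE 0.048) and was not called.

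Smad3, the partner of Smad2 that binds DNA directly, was the member with the narrowest range of group means, 0.19 on the log2 scale. Its libraries lay between 45.3 and 61.0 CPM in KO acetate, 48.1 and 53.7 CPM in KO untreated, 52.9 and 57.0 CPM in WT acetate and 55.9 and 63.0 CPM in WT untreated cells. All 4 KO untreated libraries were below all 4 WT untreated libraries, with a log2 difference of −0.19 (SE 0.077) that was not called. It was called without KO acetate 2 or 3 (−0.19 in both), with DESeq2 (−0.20), with only the compared groups in the fit (−0.19) and with scaling by totals (−0.25). Fitting the replicate number as a block also gave a call (−0.19).

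The inhibitors did not move together. Ski, a corepressor known in mouse T cells to restrain Th17 genes together with SMAD4, had 141, 147, 158 and 159.8 CPM in KO acetate and 218, 169, 206 and 239 CPM in KO untreated libraries. WT libraries lay between 133 and 184 CPM with acetate and between 159.8 and 181 CPM without. Ski was 1.37-fold lower with acetate in KO cells (log2 fold change −0.46, SE 0.102) with no overlap, and differed by −0.15 (SE 0.102) in WT cells. It was 1.21-fold higher in KO than in WT untreated cells (0.27, SE 0.102), with overlapping groups. That call was lost without any of KO untreated 1, 3 or 4, WT untreated 1, 2, 3 or 4, KO acetate 2, 3 or 4 or WT acetate 4, and with scaling by library totals. The log2 fold changes with 1 library left out lay between 0.20 and 0.37.

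Skil, whose protein is degraded on TGFβ signalling while its gene is a SMAD target, had 149, 125, 117 and 105 CPM in KO acetate libraries and 104, 97.1, 95.7 and 95.8 CPM in KO untreated libraries. In WT libraries it lay between 105 and 119 CPM with acetate and between 89.5 and 109 CPM without. It was 1.27-fold higher with acetate in KO cells (log2 fold change 0.34, SE 0.084), the opposite direction to Ski. The acetate difference in WT cells was 0.14 (SE 0.084). KO acetate 1 held the highest value of both Skil and Inhba among the 16 libraries.

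Smad7, the inhibitory SMAD that TGFβ induces as feedback, was at 24.9, 26.7, 26.1 and 25.02 CPM in KO acetate and 22.8, 20.3, 21.0 and 23.0 CPM in KO untreated libraries. WT libraries lay between 18.7 and 22.9 CPM with acetate and between 17.2 and 22.2 CPM without. The KO acetate libraries were above the other 12. Smad7 was 1.18-fold higher with acetate in KO cells (log2 fold change 0.23, SE 0.082). This call was lost without KO acetate 2 or 3 (0.21 and 0.23) or KO untreated 2 or 3 (0.19 and 0.21), and without the 4 libraries with a high share of the unnamed gene (0.19). The difference between KO acetate and WT acetate cells was 0.32 (SE 0.082), which was not called in the reported edgeR fit. It was called by DESeq2 (0.31) and with the replicate number fitted as a block (0.32). The KO untreated to WT untreated difference of 0.17 (SE 0.083) was called only without WT untreated 3 (0.24).

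Sox4, which encodes an HMG-box transcription factor that TGFβ induces in T cells, had the widest range of the 10 members, 2.20 on the log2 scale between the highest and the lowest group mean. Of all tested genes 2.80% had a wider range. It was at 38.2, 38.1, 39.9 and 35.7 CPM in KO acetate and 10.5, 12.9, 10.5 and 10.8 CPM in KO untreated libraries. WT libraries had 24.3, 23.8, 17.5 and 21.1 CPM with acetate and 7.63, 8.60, 8.14 and 8.38 CPM without. The 4 groups did not overlap, and from high to low the order was KO acetate, WT acetate, KO untreated and WT untreated. With acetate Sox4 was 3.39-fold higher in KO cells (log2 fold change 1.76, SE 0.098) and 2.64-fold higher in WT cells (1.40, SE 0.099). The KO level was 1.75-fold that of WT with acetate (0.81, SE 0.094) and 1.37-fold that of WT without (0.45, SE 0.1002). The untreated difference was 0.34 and not called without the 4 libraries with a high share of the unnamed gene. The 2 acetate effects differed by 0.36 (SE 0.137), which was not called and was called without KO untreated 2 (0.43). In GENCODE M21 the gene Gm26735 overlaps Sox4 on the opposite strand, and it was not analysed here. The kit marks strand, but whether the counting used it is not given in the sources used here.

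In bulk RNA, more cells expressing a gene and more RNA per cell cannot be told apart. Markers of other cells were low. The 2 CD8 T cell markers summed to 13.7 to 18.2 CPM in KO acetate, 5.13 to 8.35 CPM in KO untreated libraries, 13.1 to 17.2 CPM in WT acetate libraries and 9.08 to 11.2 CPM in WT untreated libraries, so they were higher with acetate, as Sox4 and Tgfbr2 were. For stroma, 2 of 5 markers were in the table and summed to 2.32 to 3.10 CPM in KO acetate, 0.466 to 1.58 CPM in KO untreated libraries, 1.59 to 2.53 CPM in WT acetate libraries and 0.722 to 1.52 CPM in WT untreated libraries. Their part in the acetate differences was not tested. The 3 of 5 myeloid markers in the table summed to 3.16 to 5.36 CPM in KO acetate, 3.81 to 4.74 CPM in KO untreated, 3.58 to 5.19 CPM in the WT acetate group and 3.68 to 5.33 CPM in the WT untreated group, and Csf1r and Adgre1 were not analysed here.

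Set side by side, the members were counted against all tested genes, and since they were proposed with these values in view nothing is read from the counts. Between KO acetate and KO untreated cells 8 of 10 were called, 5 higher and 3 lower, where 43.7% of all tested genes were called, 22.1% higher and 21.6% lower. Groups did not overlap for 8 members, against 37.7% of all genes. Between KO and WT untreated cells 5 of 10 were called, 4 higher and 1 lower (36.6% of all genes, 18.0% higher and 18.6% lower), or 3 higher and 3 lower when scaled by library totals. That scaling called 1914 of all genes higher and 3217 lower in this comparison. Here 5 members did not overlap (36.0% of all genes). These comparisons share the KO untreated libraries. Between WT acetate and WT untreated cells 3 of 10 were called, 2 higher and 1 lower (15.4% of all genes, 7.89% higher and 7.55% lower), or 2 higher and none lower when scaled by totals, and 3 did not overlap (21.3%). In this comparison scaling by totals called 1196 of all genes higher and 558 lower. Between KO acetate and WT acetate cells the 2 called members were Inhba and Sox4 and both were higher (1.00% of all genes were called, 0.487% higher and 0.514% lower), and 4 did not overlap (9.36%). In the difference of the 2 acetate effects 1 member, Inhba, was called, with a positive difference (11.9% of all genes, 6.37% positive and 5.54% negative).

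**Figure D2:**
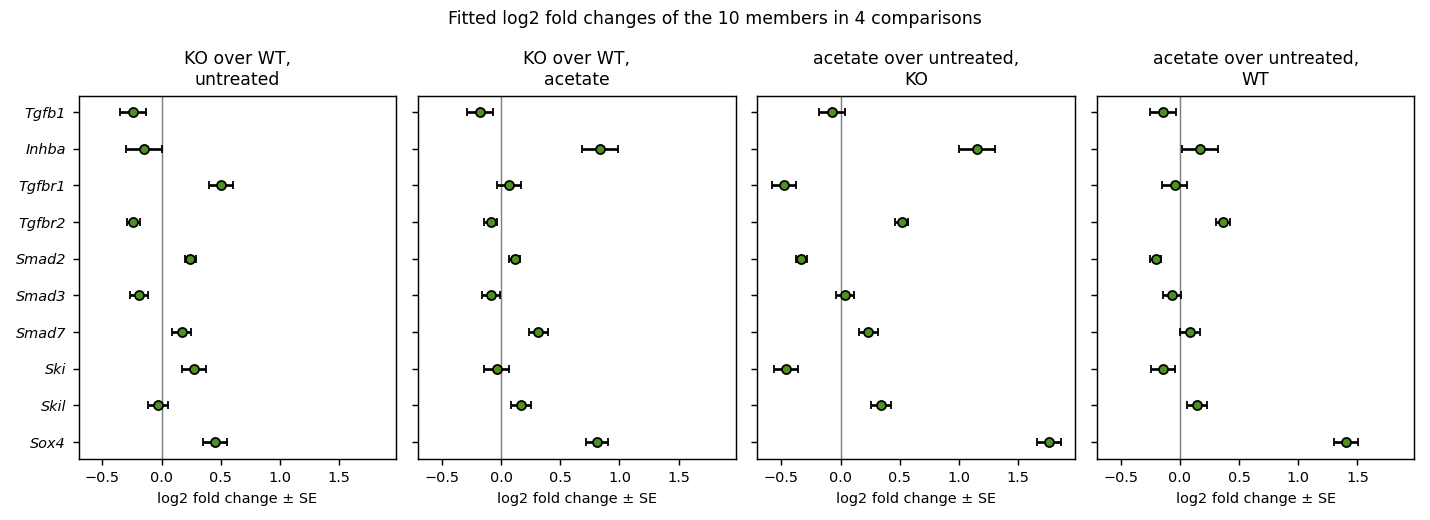
Fitted log2 fold changes (points) with their SE (bars) of the 10 members in 4 comparisons, n = 4 libraries per group. The acetate effects of Sox4 and Tgfbr2 lie right of 0 in both genotypes, and that of Inhba lies at 1.15 in KO cells and at 0.17 in WT cells.

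The members' profiles over the 16 libraries fell close together for some pairs. Measured as the root mean square difference of mean-centred log2 CPM, the nearest pair was Smad2 and Ski (0.147), followed by Tgfbr1 and Smad2 (0.168) and Tgfbr1 and Ski (0.174). These 3 genes were all highest in KO untreated libraries. The farthest pair was Ski and Sox4 (1.02). By the same measure the named non-member genes nearest to Sox4 were Epn2 (0.258), Tub (0.264) and Otub2 (0.279). Epn2 averaged 12.9 CPM in KO acetate, 4.50 CPM in KO untreated libraries, 8.69 CPM in WT acetate libraries and 3.76 CPM in WT untreated libraries. Nearest to Inhba were Klhl23 (0.175), Nfkbiz, which encodes the nuclear IκB protein IκBζ (0.198), and the MAP kinase phosphatase gene Dusp4 (0.222). Dusp4 averaged 255 CPM in KO acetate, 117 CPM in KO untreated libraries, 194 CPM in WT acetate libraries and 160.4 CPM in WT untreated libraries. Nearest to Tgfbr2 were the transporter gene Abcg2 (0.065), Polr1c (0.074) and the calcium channel gene Itpr3 (0.075).

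Levels can be set between genes only per length, for which CPM was divided by the summed exon length of each gene in GENCODE M21. In WT untreated libraries the order was led by Tgfb1 at 44.3 ± 4.32 CPM per kb, Ski at 31.0 ± 1.62 and Inhba at 22.9 ± 4.89 (SD, n = 4). Smad7 at 4.29 ± 0.463 and Sox4 at 1.71 ± 0.087 CPM per kb came last. In KO acetate libraries Inhba came first at 46.0 ± 8.43 CPM per kb, with libraries between 37.02 and 57.3. Tgfb1 followed at 35.5 ± 1.01, with libraries between 34.9 and 37.04 CPM per kb, so that this pair of neighbours overlapped. Sox4 reached 7.91 ± 0.359 CPM per kb there, a range that overlapped that of Smad2 (8.04 ± 0.1003) and lay above that of Smad7 (5.67 ± 0.189). In WT libraries with acetate Ski (28.0 ± 4.25) and Inhba (25.8 ± 3.28) overlapped, as did Smad7 (4.56 ± 0.409) and Sox4 (4.52 ± 0.653).

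**Figure D3:**
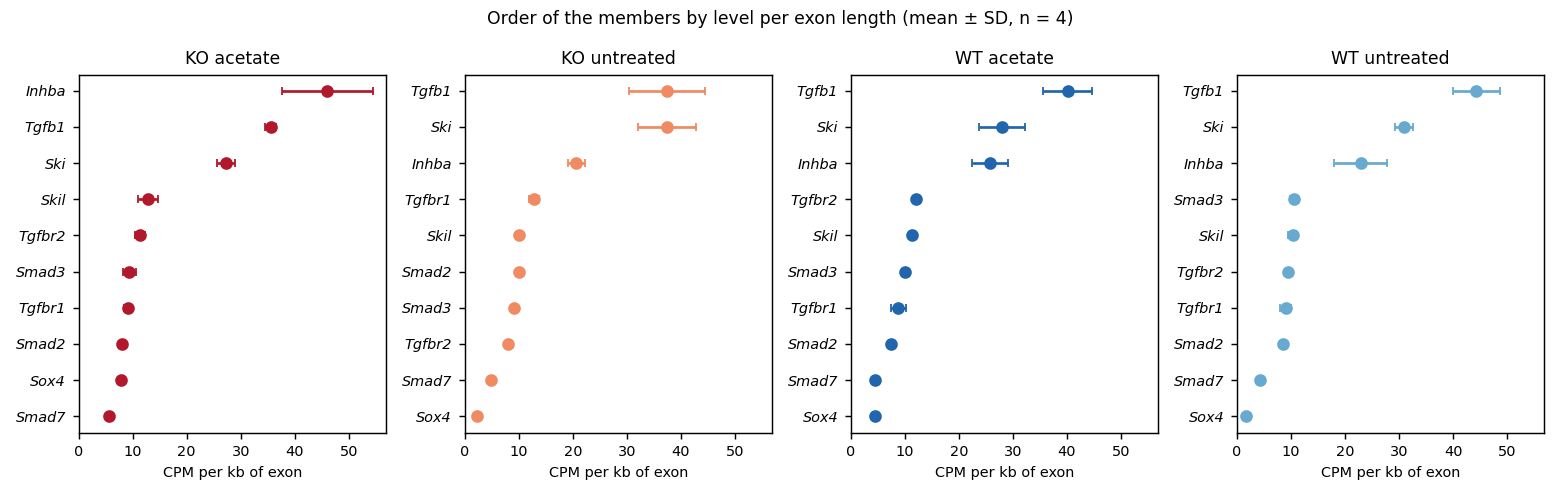
Mean CPM per kb of exon (points) with SD (bars) of the 10 members in each group, n = 4, ordered by level within a group. Inhba leads in KO acetate at 46.0 CPM per kb and is at 22.9 in WT untreated libraries, and Sox4 is last in the other 3 groups.

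The wider pathway was followed in 71 other genes grouped by role, of which 62 were in the table and 60 were tested. This list was chosen with earlier results of these data known, so its shares and adjusted p-values are not independent support. Except where said otherwise, the genes named are the called ones with the 6 smallest adjusted p in each comparison. Inhbb, Bmp2, Bmp4, Itgb6, Fst, Smad9, Foxh1, Cdkn2b and Ccn2 were not analysed here, and Tgfb2 and Smad6 fell under the filter on low counts. Between KO acetate and KO untreated cells 26 of 60 were called, 18 higher and 8 lower, or 25 higher and 6 lower when scaled by library totals. The share of 43.3% is near the 43.7% of all tested genes (22.1% higher and 21.6% lower). With scaling by totals 4229 of all genes were called higher and 2085 lower. The list had a median log2 fold change of 0.15 with TMM, against −0.01 over all genes. No role was tested against all genes. Genes of ligands and their activation had 8 higher and 1 lower of 14, and receptor genes 5 higher and 1 lower of 11. The ligand role also holds Inha and Fstl3, whose products oppose activin, so its counts give no direction of signalling. Fstl3 was at 0.979 ± 0.246 CPM in KO acetate and 0.301 ± 0.149 CPM in KO untreated cells (SD, n = 4). Inha was at 0.594 ± 0.089 and 0.329 ± 0.105 CPM. Both were added after their values were seen. Of 8 tested SMADs and partners 3 fell and none rose. Brakes and turnover genes numbered 14, of which 4 rose and none fell, and of 13 targets 1 rose and 3 fell.

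Gdf11, a TGFβ family ligand that signals through activin receptors and SMAD2 and SMAD3, rose with acetate in KO cells. It was at 26.8, 23.5, 28.5 and 22.5 CPM in KO acetate libraries, against 7.62, 5.60, 6.80 and 7.17 CPM in KO untreated libraries (log2 fold change 1.90, SE 0.101, edgeR adjusted p = 2.32e-10). The groups did not overlap. Bmp7, a BMP ligand gene, rose to 3.18 ± 0.553 CPM in KO acetate cells, against 1.26 ± 0.204 CPM in KO untreated cells (SD, n = 4; edgeR adjusted p = 3.14e-05). Itgav, the integrin alpha V chain that with beta 8 frees TGFβ from its latent form, rose to 102 ± 22.1 CPM, against 57.7 ± 3.03 CPM (edgeR adjusted p = 9.1e-05). KO acetate 1 was also the highest library for Itgav, at 135 CPM. Itgb8, the gene of the beta 8 chain, was at 3.74 ± 0.618 CPM in KO acetate and 3.35 ± 0.868 CPM in KO untreated cells. It was added after its values were seen. Thbs1, the gene of the TGFβ activator thrombospondin 1, fell to 0.383 ± 0.105 CPM in KO acetate cells, against 1.79 ± 0.739 CPM in KO untreated cells (edgeR adjusted p = 0.000116). Of the receptors, Acvrl1, a type I receptor for BMP ligands, rose 1.68-fold (edgeR adjusted p = 1.1e-05). Bmpr2, the type II BMP receptor, rose 1.66-fold (edgeR adjusted p = 1.89e-05).

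Between KO and WT untreated cells 17 of 60 pathway genes were called, 8 higher and 9 lower, or 5 higher and 10 lower when scaled by totals. The number higher was 4 without KO untreated 1 or WT untreated 2, and 5 without WT untreated 4 or without the 4 libraries with a high share of the unnamed gene. The share was 28.3%, against 36.6% of all genes (18.0% higher and 18.6% lower), and the median log2 fold change was −0.04, against 0.01 over all genes. Scaling by totals called 1914 of all genes higher and 3217 lower. Gdf11 fell to 6.80 ± 0.864 CPM in KO untreated, against 14.95 ± 0.758 CPM in WT untreated cells (SD, n = 4; log2 fold change −1.14, SE 0.101, edgeR adjusted p = 2.47e-07). Acvrl1 fell to 7.50, 7.16, 6.84 and 6.07 CPM in KO untreated libraries, against 13.4, 15.97, 14.7 and 14.5 CPM in WT untreated libraries (edgeR adjusted p = 4.48e-07). Nrros, which encodes an anchor of latent TGFβ, fell 1.56-fold (edgeR adjusted p = 0.000177). The target gene Id3, an inhibitor of E proteins, rose to 64.0 ± 2.63 CPM in KO untreated, against 34.3 ± 4.54 CPM in WT untreated cells (edgeR adjusted p = 2.72e-06). Gadd45b, a stress gene that TGFβ also induces, rose 1.51-fold (edgeR adjusted p = 6.54e-06). Thbs1 rose to 1.79 ± 0.739 CPM in KO untreated, against 0.444 ± 0.208 CPM in WT untreated cells (edgeR adjusted p = 0.000404).

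In WT cells 12 of 60 pathway genes were called with acetate, 9 higher and 3 lower, or 10 higher and 1 lower when scaled by totals. The number lower was 1 without WT acetate 1 or 4 or WT untreated 3, and 5 without WT acetate 3. All tested genes had 15.4% called, 7.89% higher and 7.55% lower. Scaling by totals called 1196 of all genes higher and 558 lower. The list had a median log2 fold change of 0.03, against 0.00 over all genes. Ligand and activation genes had 5 higher and 2 lower of 14. Gdf11 rose to 24.5 ± 1.97 CPM in WT acetate, against 14.95 ± 0.758 CPM in WT untreated cells (SD, n = 4; log2 fold change 0.71, SE 0.096, edgeR adjusted p = 7.53e-05). Of 3 tested genes for LTBP carriers of latent TGFβ, 2 rose, and all 3 had low levels. Ltbp3 was at 2.06 ± 0.590 CPM in WT acetate and 0.464 ± 0.210 CPM in WT untreated cells (edgeR adjusted p = 0.00052). Ltbp4 was at 1.67 ± 0.470 CPM in WT acetate and 0.633 ± 0.228 CPM in WT untreated cells (edgeR adjusted p = 0.00379). The other carrier gene, Ltbp1, was at 0.335 ± 0.076 CPM in WT acetate and 0.324 ± 0.282 CPM in WT untreated cells (edgeR adjusted p = 0.981). Lrrc32, which encodes another anchor of latent TGFβ, was at 4.03 ± 0.840 CPM in WT acetate and 6.13 ± 1.86 CPM in WT untreated cells (edgeR adjusted p = 0.0638). Ltbp1 and Lrrc32 were added beside the others after their values were seen. Bmp7 rose 2.00-fold (edgeR adjusted p = 0.00157) and Gadd45b 1.71-fold (edgeR adjusted p = 2.13e-06). Smad1, the BMP signal carrier, fell 1.21-fold (log2 fold change −0.28, edgeR adjusted p = 0.00792). It was at −0.23 with an adjusted p of 0.0845 when libraries were scaled by totals.

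Between KO acetate and WT acetate cells edgeR and DESeq2 each called none of the 60 pathway genes, where edgeR called 1.00% of all tested genes. An unadjusted edgeR p under 0.05 was found for 11 of the 60, and for 18.4% of all tested genes. In the difference of the 2 acetate effects 5 were called (8.33%, against 11.9% of all genes). The acetate effect was larger in KO than in WT cells for Gdf11 (1.19 on the log2 scale, SE 0.138, edgeR adjusted p = 3.28e-05). It was also more positive for Acvrl1 (0.84, SE 0.143, edgeR adjusted p = 0.0011), which stood at 11.6 ± 1.30 CPM in KO acetate and 13.8 ± 1.31 CPM in WT acetate cells. Wwp1, a ubiquitin ligase gene, had a difference of 0.52 (SE 0.147, edgeR adjusted p = 0.0276). This call was lost without KO acetate 1 (0.45) or 2 (0.47), KO untreated 3 (0.51), WT acetate 4 (0.48) or WT untreated 2 (0.51) or 4 (0.46), at an edgeR adjusted p of 0.0504 to 0.0612, and without the 4 libraries with a high share of the unnamed gene (0.59, edgeR adjusted p = 0.0582). Id3 had a negative difference (−0.84, SE 0.141, edgeR adjusted p = 0.00103), since it was lower with acetate in KO cells (−0.47) and higher with acetate in WT cells (0.37). Gadd45b had one of −0.52 (SE 0.101, edgeR adjusted p = 0.00287). Without KO acetate 4, 9 pathway genes were called in this comparison, 7 of them with a positive difference. Of all genes 1999 were then called, 1084 with a positive and 915 with a negative difference.

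**Figure D4:**
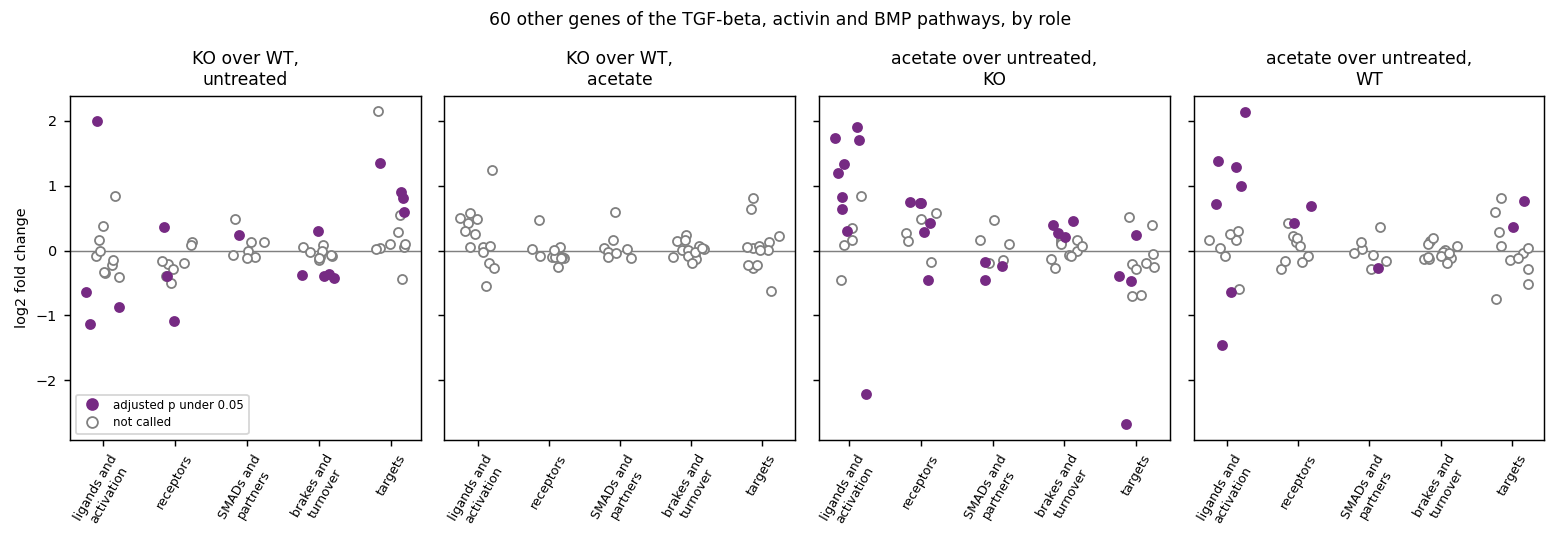
Log2 fold changes of 60 other TGF-beta, activin and BMP pathway genes by role in 4 comparisons, 1 point per gene, filled where the edgeR adjusted p was under 0.05. Between KO acetate and KO untreated cells 8 of the 9 called ligand and activation genes are above 0, and between KO acetate and WT acetate cells no point is filled. Of all tested genes 22.1% were called higher and 21.6% lower in the first of these comparisons, and 1.00% were called in the second. The ligand and activation role also holds Inha and Fstl3, whose products oppose activin.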

How the data were processed

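RNA was taken from 16 libraries of cultured mouse Th17 cells, with a stranded TruSeq mRNA kit, per the labels' protocols. A table deposited by the authors holds an estimated count, as a whole number, for each gene and library. Per the submitters' processing notes Salmon, DESeq2 and DESeq were used, and neither genome build, annotation nor rounding is given in the sources used here. All genes in the table have 10 counts or more in 3 or more libraries, and others were not analysed here. Names were matched by Ensembl identifier without version, for 15221 of 15571 genes. The 16 libraries were fitted together by group with edgeR 4.0.16 (R 4.3.3, limma 3.58.1, TMM scaling, filterByExpr, robust quasi-likelihood F test, Benjamini-Hochberg adjustment). SE is the size of the log2 fold change divided by the square root of F. DESeq2 1.42.0 and other settings served as alternatives. The fit was tested on simulated data. Sampling noise did not account for the differences within any of 24 replicate pairs (chi-square over its degrees of freedom was 6.18 to 214), and the common biological coefficient of variation was 0.144. Genes named from the wider pathway were the called ones with the 6 smallest adjusted p in each comparison. Profile neighbours were the 3 nearest named genes of the 3 members with the widest range. The members and lists were chosen with earlier results of these data known. Precision of the estimated counts is limited by counting error and by how Salmon divides shared reads.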

Additional observations from a re-analysis of the deposited data

Results flagged for a closer look

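The acetate effect differed between genotypes, by the edgeR interaction term, for 1 of 10 members and 5 of 60 other pathway genes (8.33%). Of all tested genes 11.9% were called, so neither count stands above that share. The difference, KO minus WT, was 0.99 (log2) for Inhba, a member proposed with these values in view, 1.19 for Gdf11, 0.84 for Acvrl1 and 0.52 for Wwp1. It was −0.84 for Id3 and −0.52 for Gadd45b. The Wwp1 call was lost in 6 refits with 1 library left out, and without the 4 libraries with a high share of the unnamed gene.

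Of 92 sets of 4 libraries examined (the 10 members and 13 named pathway genes in 4 groups), 4 had 1 library far from the other 3, and chance gives about 1 in 20. For Tgfb1 in KO acetate, replicate 3 was at 187 CPM and the others at 176 to 177. For Sox4 in KO untreated, replicate 2 was at 12.9 CPM and the others at 10.5 to 10.8. For Skil in KO untreated, replicate 1 was at 104 CPM and the others at 95.7 to 97.1. For Smad3 in WT untreated, replicate 1 was at 63.0 CPM and the others at 55.9 to 56.9.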

How the results depend on the processing

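Each of 73 fold changes (10 members in 5 comparisons and 23 named pathway values) was recomputed under 7 alternative settings and with each of the 16 libraries left out. None changed sign where it was called in the reported fit, and 1663 of 1679 recomputed values stayed on their side of the threshold or, for members, within the spread between libraries. For members that measure does not count changed calls. Leaving out 1 library of 4 could hardly move a value beyond the spread, so nothing is read from it there. Ski kept its call between KO and WT untreated cells in 11 of these 23 refits. Of counts, those between KO acetate and WT acetate cells moved most. There 150 genes were called in all, against 826 with DESeq2, 78 with scaling by totals, 408 with the replicate block, 16 with only the compared groups fitted and 535 when the 4 libraries rich in the unnamed gene (over 3% of their counts) were left out. With 1 library left out this count lay between 21 (without WT acetate 3) and 661 (without KO acetate 2). Members called there numbered 2, against 3 with DESeq2, 3 with the replicate block, 1 with scaling by totals and 1 to 2 with 1 library left out. Without those 4 libraries 3361 genes were called between KO and WT untreated cells (5481 with them) and 1010 in the difference of acetate effects (1785 with them). In that difference 2 members were called with DESeq2 and 2 with the replicate block, against 1, and 1 to 2 with 1 library left out. The pathway count was 9 with the replicate block, against 5, and 4 to 9 with 1 library left out. All genes called there numbered 2356 with DESeq2, 2259 with the block and 1277 to 1999 with 1 library left out.

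The replicate number was fitted as a block, although the labels do not say what same-numbered libraries share. Deviations of same-numbered libraries correlated over 0.1 in 9 of 24 pairs (r from −0.08 to 0.23). Their median r was 0.048, against −0.013 for other pairs. Of 16 libraries 10 correlated best with their own number. The reported fit has no block, and whether the numbers mark a pairing cannot be told from the labels. With the block 1 pathway gene was called between KO acetate and WT acetate cells, against 0 without it. The block also added calls for Smad3 between KO and WT untreated cells (−0.19), Smad7 between KO acetate and WT acetate cells (0.32) and Tgfbr1 in the difference of acetate effects (−0.43). Scaling by library totals moved the all-gene median log2 fold change between KO acetate and KO untreated cells to 0.09, against −0.01 with TMM. All genes called there were then 4229 higher and 2085 lower, against 3314 and 3236. Where a count or call changed, the cause was not tested.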
